A study of Mus musculus with 6 samples.

Results

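The genes described here are 9 mouse genes of the neurexin adhesion system of the synapse: the neurexins Nrxn2 and Nrxn3, the neuroligins Nlgn1, Nlgn2 and Nlgn3, and the leucine-rich repeat transmembrane genes Lrrtm1, Lrrtm2, Lrrtm3 and Lrrtm4. They were taken by symbol, as 9 of the 25696 mouse genes that occur in at least 1 of the deposited tables. The droplet table holds all 9. The bulk and plate tables hold 6 of them, and Lrrtm1, Lrrtm2 and Lrrtm3 were not analysed there.

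Neurexins are cell-surface proteins of the presynaptic side. Across the synaptic cleft they bind several kinds of postsynaptic ligand, among them the neuroligins and the LRRTM proteins, and these pairs organise the receptors, scaffolds and release sites that face each other at a synapse. Neuroligin 1 is best known at excitatory synapses and neuroligin 2 at inhibitory synapses, while neuroligin 3 is found at synapses of both kinds and is also made by glia. LRRTM proteins act mainly at excitatory synapses, and LRRTM4 also binds heparan sulfate proteoglycans.

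The study isolated nuclei from 50 µm scrolls of formalin-fixed, paraffin-embedded (FFPE) brain of C57BL/6J mice aged 8 to 12 weeks, which the labels call cortex. Paraffin was removed with mineral oil and heat, with heated xylene, or with xylene at room temperature. Bulk SCRB-seq (a plate method that reads the 3′ end of transcripts) covered 64 wells, 16 for each of these methods and 16 of frozen nuclei, with 10 nuclei in 8 wells and 100 nuclei in the other 8. Bulk SMART-Seq2 (a full-length method) covered 12 wells, with 10, 50 and 100 nuclei for each of the 3 methods and for frozen nuclei. Single nuclei were read by SMART-Seq2 in plates (143 FFPE and 137 frozen nuclei in 1 table, and 98 FFPE nuclei of a further batch) and in droplets (7031 FFPE nuclei in 12 classes named by the authors). Frozen wells and nuclei are named in the deposited annotation and have no GEO sample of their own, and the strain and age above are those given for the FFPE samples. No label gives the animal behind a well or nucleus, so wells of a group may be technical replicates, and the p-values below measure only the spread between wells.

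Depth bounded what could be seen. SCRB-seq wells held 7512 to 167144 mouse counts, and the mineral oil wells of 10 nuclei were the shallowest, at 7512 to 20593. SMART-Seq2 wells held 270363 to 942966 counts. Plate nuclei had a median of 47887 counts (FFPE), 180584 (FFPE, batch 1) and 255329 (frozen), and droplet nuclei a median of 325 UMIs. Levels are given as CPM, a gene's counts scaled to the mouse total of its well, nucleus or group, unless another scale is named. The labelled tissue was checked against marker lists. The granule neuron list, which includes Gabra6, a receptor subunit that marks cerebellar granule neurons, summed to 239 to 6115 CPM in the FFPE wells of SCRB-seq and to 0 to 101 CPM in the frozen wells, and the excitatory neuron list to 95.9 to 884 against 919 to 1695 CPM. FFPE and frozen material therefore differed in marker makeup, and in bulk wells fewer cells of a type cannot be told apart from less RNA per cell.

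The genes differ greatly in length, which bears on any comparison of their levels. In GRCm38 with GENCODE M21 annotation, Nrxn3 spans 1612060 bases (chr12:88722876-90334935, + strand), Nlgn1 906246 bases (chr3:25426215-26332460, − strand) and Lrrtm4 791267 bases (chr6:80018877-80810143, + strand). Nrxn2 spans 125439 bases (chr19:6418731-6544169, + strand), Nlgn3 26796 bases (chrX:101299168-101325963, + strand) and Nlgn2 14663 bases (chr11:69823122-69837784, − strand). Of the genes found only in the droplet table, Lrrtm3 spans 161806 bases (chr10:63928472-64090277, − strand) and Lrrtm1 15103 bases (chr6:77242689-77257791, + strand). Nrxn3, Nlgn1 and Lrrtm4 had the highest pooled CPM of the 6 genes in every table. Per kilobase of exon in the frozen SMART-Seq2 wells, pooled levels were 529 CPM per kb for Nrxn3, 507 for Lrrtm4 and 263 for Nlgn1, against 7.35 for Nlgn3, 6.45 for Nrxn2 and 2.02 for Nlgn2. Per kilobase of whole gene the gap was smaller, from 4.14 CPM per kb for Nrxn3 to 0.710 for Nrxn2. In the FFPE wells of the same assay the order per kilobase of exon was Nrxn3 at 585, Nlgn1 at 170 and Lrrtm4 at 158 CPM per kb, so Lrrtm4 stood behind Nlgn1 there and ahead of it in frozen wells.

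Lrrtm4 was lower in FFPE than in frozen wells in both bulk assays, and Nlgn1 was lower in SCRB-seq. Nrxn3 was slightly higher in FFPE in SCRB-seq, a call that was lost with another scaling and without the filter on low counts, and Nrxn2 was not called. In SCRB-seq, 4 of the 6 genes passed the filter on low counts, and 3 of these 4 were called, against 58.0% of the 1478 genes tested. The 2 called lower stand against 27.7% of all genes and the 1 called higher against 30.2%, so the share of these genes called is near that of all genes and is no result of its own.

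Lrrtm4, a postsynaptic ligand, had the largest difference of the family genes tested in each bulk assay. Its SCRB-seq level in frozen wells ran from 717 CPM at the lowest through a median of 2256 to 3100 at the highest. Mineral oil wells ran from 0 through 186 to 1809 CPM, heated xylene wells from 74.7 through 456 to 998, and room-temperature xylene wells from 62.4 through 517 to 1051. All 48 FFPE wells lay under the frozen mean of 2067 ± 756 CPM (SD, n = 16), and 37 lay under the lowest frozen well. The log2 fold change of FFPE against frozen was -2.22 (SE 0.27, edgeR adjusted p = 6.10e-11).

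SMART-Seq2 gave the same direction for Lrrtm4. The frozen wells of 100, 50 and 10 nuclei stood at 2865, 3725 and 3068 CPM. In the same order of nuclei number, heated xylene wells stood at 908, 1042 and 1040 CPM, room-temperature xylene wells at 1720, 1558 and 236, and mineral oil wells at 319, 494 and 1473. The 9 FFPE wells were all under the lowest frozen well, and the groups did not overlap. The share of all genes that separate in this way was not computed. The log2 fold change was -1.97 (SE 0.41, edgeR adjusted p = 0.00459), and Lrrtm4 was the 1 gene of 6 called, against 4.09% of the 9092 genes tested (2.64% lower).

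Nlgn1, the neuroligin of excitatory synapses, followed Lrrtm4 in direction with a smaller difference. In SCRB-seq its frozen wells ran from 1036 through 1846 to 2901 CPM. Mineral oil wells ran from 99.8 through 660 to 1888 CPM, heated xylene wells from 262 through 904 to 1712, and room-temperature xylene wells from 219 through 947 to 1635. All 48 FFPE wells lay under the frozen mean of 1958 ± 471 CPM (SD, n = 16), and 33 lay under the lowest frozen well. The log2 fold change was -1.25 (SE 0.20, edgeR adjusted p = 8.56e-08).

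In SMART-Seq2 the frozen wells of 100, 50 and 10 nuclei held Nlgn1 at 3866, 3137 and 3463 CPM. The heated xylene wells held 2534, 2238 and 2789 CPM, the room-temperature xylene wells 1916, 1634 and 3118, and the mineral oil wells 1718, 1696 and 2612. All 9 FFPE wells were under the lowest frozen well, although the room-temperature xylene well of 10 nuclei came close to it. How many of all genes separate in this way was not computed. The log2 fold change of -0.88 (SE 0.26) missed the threshold (edgeR adjusted p = 0.0560). It passed with the number of nuclei as a covariate (0.0218), without the filter on low counts (0.0104), and when the well of 10 nuclei of heated xylene (0.0400), room-temperature xylene (0.0207) or mineral oil (0.0372) was left out.

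Nrxn3, the neurexin with the highest level, differed less. Its SCRB-seq frozen wells ran from 1753 through 2632 to 3552 CPM. Mineral oil wells ran from 1047 through 2863 to 5052 CPM, heated xylene wells from 1666 through 3900 to 5290, and room-temperature xylene wells from 2339 through 4421 to 9116. Of the 48 FFPE wells, 36 lay above the frozen mean of 2659 ± 512 CPM (SD, n = 16) and 26 above the highest frozen well, so the groups overlapped. The log2 fold change was 0.41 (SE 0.16, edgeR adjusted p = 0.0256) with TMM scaling and -0.17 (adjusted p = 0.388) with DESeq2 size factors. The call was also lost without the filter on low counts (0.48, adjusted p = 0.0713) and in the wells of 10 nuclei alone (0.41, adjusted p = 0.158). That change of scaling moved the median of all genes from 0.00 to -0.58, and the split of all calls from 447 higher and 410 lower to 309 higher and 674 lower. Relative to the median of all genes, Nrxn3 was thus about as far above it under either scaling, and Lrrtm4 and Nlgn1 were below it under both (-2.73 and -1.85 with DESeq2 size factors).

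In SMART-Seq2 the Nrxn3 level of frozen wells was 4747, 5027 and 8180 CPM for 100, 50 and 10 nuclei. Heated xylene wells stood at 9661, 8551 and 7085 CPM, room-temperature xylene wells at 9339, 9125 and 5264, and mineral oil wells at 6589, 4776 and 4499. Of the 9 FFPE wells, 4 were above the highest frozen well and 1 was under the lowest. The log2 fold change was -0.03 (SE 0.21, edgeR adjusted p = 0.974).

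**Figure D1:**
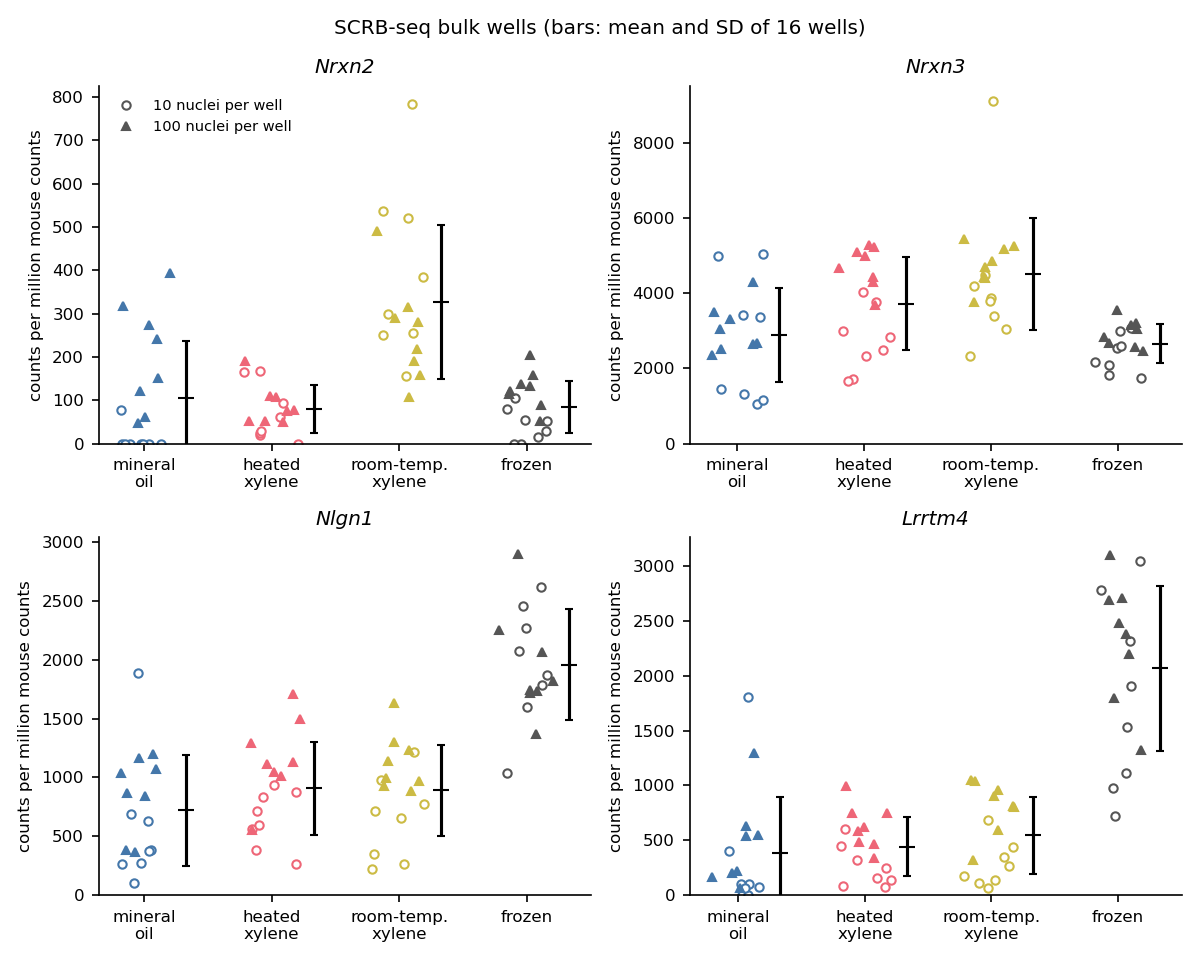
CPM (linear axis) of Nrxn2, Nrxn3, Nlgn1 and Lrrtm4 in each of the 64 SCRB-seq wells by treatment; open circles are wells of 10 nuclei, triangles wells of 100 nuclei, and bars the mean and SD of 16 wells, cut at 0. All 48 FFPE wells of Nlgn1 and Lrrtm4 sit under the frozen means of 1958 and 2067 CPM, and all 16 room-temperature xylene wells of Nrxn2 sit above the frozen mean of 84.3 CPM.

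**Figure D2:**
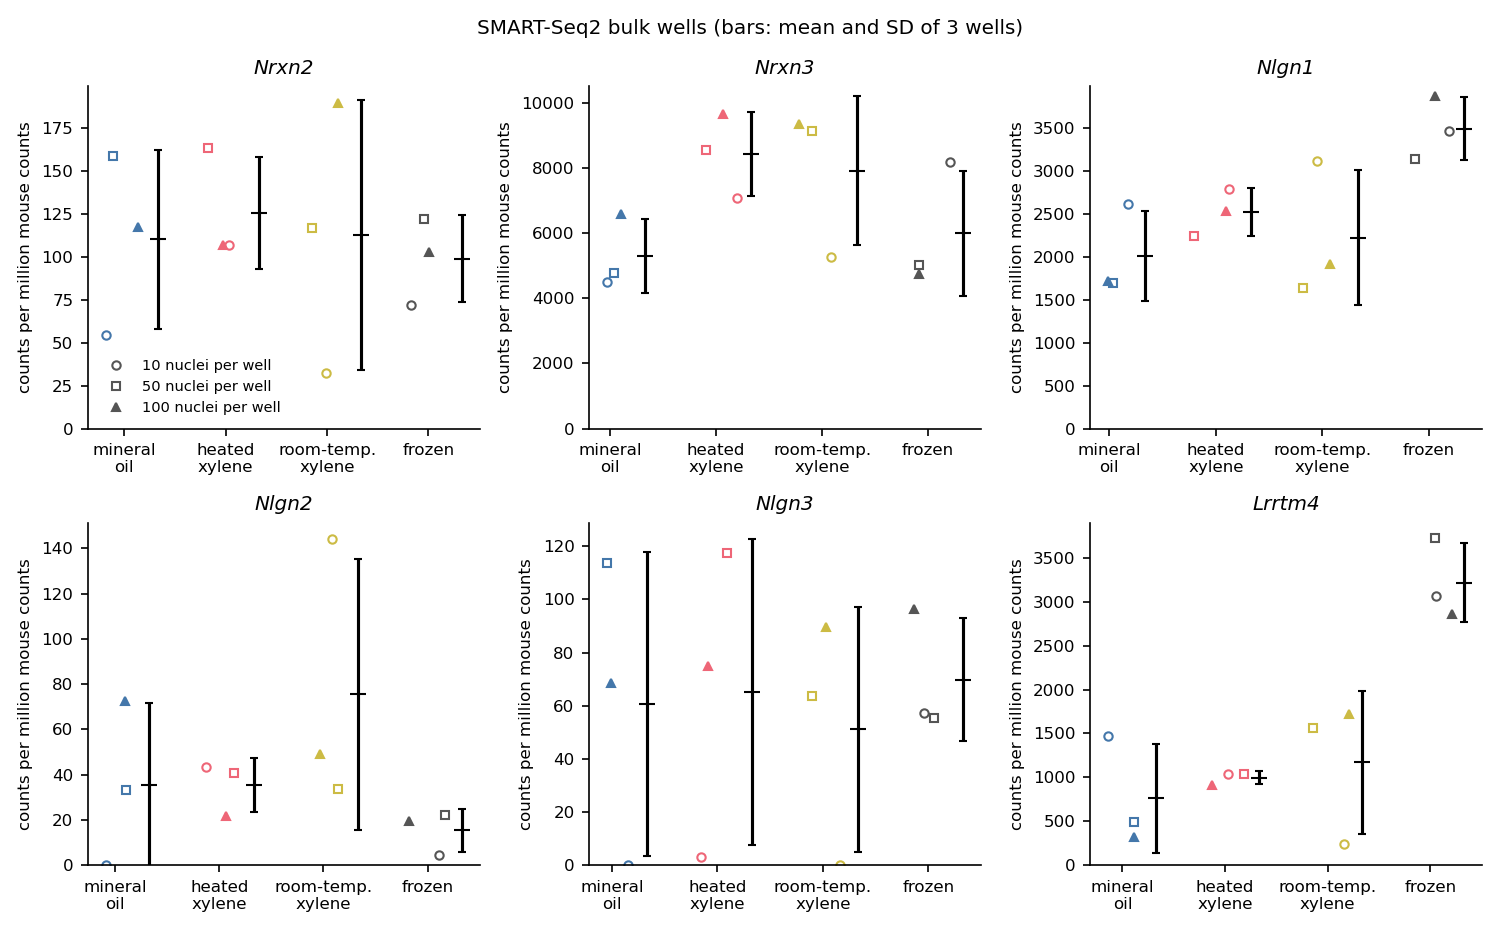
CPM (linear axis) of the 6 genes in each of the 12 SMART-Seq2 bulk wells by treatment; the symbol gives the number of nuclei per well, and bars are the mean and SD of 3 wells, cut at 0. The 9 FFPE wells of Lrrtm4 lie between 236 and 1720 CPM, under the frozen wells at 2865 to 3725.

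Nrxn2 and the 2 scarcer neuroligins were near the limit of the counts. Nrxn2 in SMART-Seq2 was at 103, 122 and 71.8 CPM in the frozen wells of 100, 50 and 10 nuclei, and the FFPE wells, at 32.5 to 190, lay on either side. Its log2 fold change of FFPE against frozen was -0.03 (SE 0.68) in SMART-Seq2 and 0.76 (SE 0.36, edgeR adjusted p = 0.0665) in SCRB-seq. With the number of nuclei as a covariate the SCRB-seq call was made (0.85, adjusted p = 0.0376). Nlgn2, the neuroligin of inhibitory synapses, did not pass the filter in SCRB-seq, where 85 counts in all FFPE wells gave a pooled 28.6 CPM and 55 counts in the frozen wells 51.6 CPM. In SMART-Seq2 Nlgn2 stood at 19.3, 22.2 and 4.49 CPM in frozen wells and at 0 to 144 CPM in FFPE wells, of which 7 of 9 lay above the highest frozen well. With a standard error of 1.28 on a log2 fold change of 1.36 this was not called (edgeR adjusted p = 0.726). Nlgn3 also failed the filter in SCRB-seq, at a pooled 30.9 CPM from 92 counts in FFPE and 71.3 CPM from 76 counts in frozen wells. Without the filter it was called lower there (-1.24, edgeR adjusted p = 0.0343). In SMART-Seq2 Nlgn3 stood at 96.4, 55.5 and 57.2 CPM in frozen wells and between 0 and 117 in FFPE wells (log2 fold change -0.57, SE 1.16, edgeR adjusted p = 0.893). With 1 well left out this fold change ran from -0.83 to -0.10. Nlgn3 counts may also include reads of Gm21986, a processed transcript on the same strand that overlaps 82.8% of the gene.

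Over the tested genes of this family, the median log2 fold change of FFPE against frozen was -0.42 in SCRB-seq (4 genes) and -0.30 in SMART-Seq2 (6 genes), beside 0.00 and -0.13 over all genes tested. With DESeq2 size factors the SCRB-seq median was -1.01, beside -0.58 over all genes, and in wells of 10 nuclei (3 genes) it was -1.63. With 1 SMART-Seq2 well left out, the median of the 6 genes ran from -0.47 to -0.063. Several marker lists moved between FFPE and frozen wells. In SMART-Seq2 the granule neuron list summed to 1245 to 3767 CPM in FFPE and 44.4 to 143 CPM in frozen wells, where 3 of its 5 genes in the table were at 0, and the excitatory neuron list to 46.8 to 380 against 1117 to 1551 CPM. In the frozen SCRB-seq wells 2 of 5 granule neuron genes were at 0. Gabra6 had 0 counts in the frozen wells of both assays, and over those wells it was at least 108-fold higher in FFPE in SCRB-seq and at least 177-fold higher in SMART-Seq2 against a floor of 3 counts. The oligodendrocyte list in SCRB-seq had medians of 1264 CPM in FFPE and 388 in frozen wells, and the inhibitory neuron list 324 and 69.2. The part of these lists in the differences of Lrrtm4, Nlgn1 and Nrxn3 was not tested. Human genes took 1.61% to 31.8% of the counts of a SCRB-seq well and were left out of the library sizes.

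The other genes of the pathway were counted from a list of 40 partners of neurexins, neuroligins and LRRTMs. In SCRB-seq 18 were tested, and 4 were called higher and 8 lower in FFPE, against 30.2% and 27.7% of all genes. With DESeq2 size factors 1 was called higher and 14 lower, with a median of -1.24, against 20.9% and 45.6% of all genes and their median of -0.58. In SMART-Seq2 32 were tested, and 2 were called higher and 7 lower, against 1.45% and 2.64% of all genes. Leaving out the frozen well of 100, of 50 or of 10 nuclei left 2 higher and 2 lower each time, while the calls over all genes fell from 372 to 174, 187 and 162. The list's median log2 fold change was -0.63 in SCRB-seq and -0.73 in SMART-Seq2, beside 0.00 and -0.13 over all genes. Without the frozen SMART-Seq2 well of 10 nuclei it was -0.39, beside 0.01 over all genes. In the SCRB-seq wells of 10 nuclei alone (13 partners) it was -1.33, beside -0.05.

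The largest rise among the partners was that of Cbln1, a secreted protein that binds neurexins on parallel fibres of cerebellar granule neurons and is also on the granule neuron marker list. Cbln1 had a median of 253 CPM in the 48 FFPE wells of SCRB-seq, and 1 count in all 16 frozen wells, a ratio of 326 (95% interval 58.3 to 12880, counting error only). In SMART-Seq2 it ran from 61.5 to 471 CPM in FFPE wells and had 0 counts in frozen wells, which makes it at least 120-fold higher. Lin7a, an adaptor of the presynaptic scaffold that neurexins bind, rose in both (log2 fold change 1.42, SE 0.42, adjusted p = 0.00295, and 3.06, SE 0.54, adjusted p = 0.000934). Its SCRB-seq call was lost with DESeq2 size factors (0.84, edgeR adjusted p = 0.0749). Khdrbs3, an RNA-binding protein that controls alternative splicing of neurexins, fell most, from a median of 631 CPM in frozen to 19.6 in FFPE wells of SCRB-seq (-3.67, SE 0.34) and from 576 to 44.7 CPM in SMART-Seq2 (-4.14, SE 0.70). The next falls were Shank1, a scaffold of excitatory synapses, in SCRB-seq (-1.56, SE 0.40) and Adgrl2, a latrophilin, in SMART-Seq2 (-3.88, SE 0.96). The Shank1 call was lost in the wells of 100 nuclei alone (-0.77, adjusted p = 0.121), and the Adgrl2 call when the frozen well of 100 (adjusted p = 0.118), 50 (0.139) or 10 nuclei (0.154) was left out. Apba2, an adaptor singled out after its values were seen, was called in opposite directions, 0.78 (SE 0.23) in SCRB-seq and -1.43 (SE 0.36) in SMART-Seq2. The SCRB-seq call of Apba2 was lost with DESeq2 size factors (0.12, edgeR adjusted p = 0.590) and in the wells of 100 nuclei alone (0.33, adjusted p = 0.289), and the SMART-Seq2 call when the frozen well of 100 (adjusted p = 0.306), 50 (0.168) or 10 nuclei (0.211), the heated xylene well of 50 (0.0596) or the room-temperature xylene well of 100 nuclei (0.0693) was left out, and without the filter (0.0607).

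The 3 ways of removing paraffin differed most for Nrxn2 in SCRB-seq. Room-temperature xylene wells ran from 108 through 286 to 785 CPM, heated xylene wells from 0 through 68.9 to 190, mineral oil wells from 0 through 55.0 to 393, and frozen wells from 0 through 84.8 to 203. All 16 room-temperature xylene wells were above the frozen mean of 84.3 ± 59.1 CPM (SD, n = 16), and 12 were above the highest frozen well, against 0 of the heated xylene and 4 of the mineral oil wells. Each combination of method and number of nuclei is 1 index pool, so method and pool cannot be told apart.

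Nrxn2 fell in heated against room-temperature xylene by 2.05 on the log2 scale (SE 0.43, edgeR adjusted p = 0.00449), and it was the 1 gene of 4 called there, against 1.94% of the 1080 genes tested (0.926% lower). The call held in the wells of 100 nuclei alone (-1.42, adjusted p = 0.0325). Against room-temperature xylene, mineral oil wells also had less Nrxn2 (-1.47, SE 0.43, adjusted p = 0.0181). That call was lost in the wells of 100 nuclei alone, where the value was -0.26 (adjusted p = 0.725). The 8 mineral oil wells of 10 nuclei held 1 Nrxn2 count among 115185 counts in all, and 7 of them were at 0, while the 8 room-temperature xylene wells of 10 nuclei ran from 156 to 785 CPM. In SMART-Seq2 the room-temperature xylene wells of 100, 50 and 10 nuclei stood at 190, 116 and 32.5 CPM of Nrxn2 and the heated xylene wells at 107, 163 and 107, which overlap (log2 fold change 0.28, SE 0.99, adjusted p = 1.00).

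Nrxn3 was lower in mineral oil than in room-temperature xylene in SCRB-seq (-0.74, SE 0.21, edgeR adjusted p = 0.0156). With Nrxn2 this made 2 of 4 genes called in that comparison, against 10.3% of genes (7.78% lower). In the wells of 100 nuclei, Nrxn3 ran from 2349 through 2863 to 4289 CPM with mineral oil, from 3676 through 4829 to 5290 with heated xylene and from 3769 through 4779 to 5436 with room-temperature xylene. In those wells alone Nrxn3 was lower with mineral oil against both, by -0.63 against heated xylene (SE 0.15, adjusted p = 0.00450) and by -0.57 against room-temperature xylene (SE 0.15, adjusted p = 0.0109). With all wells the difference from heated xylene was -0.43 (SE 0.21) and not called (edgeR adjusted p = 0.199), and in the wells of 10 nuclei alone the difference from room-temperature xylene was -0.94 (adjusted p = 0.0608).

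In mineral oil against heated xylene, 0 of 4 genes were called by edgeR, against 8.52% of genes tested, with 1 at an unadjusted p under 0.05 and 0 called by DESeq2. Lrrtm4 and Nlgn1 were called in none of the 3 comparisons of methods in SCRB-seq. Their log2 fold changes ran from -0.48 to -0.20 (SE 0.42 to 0.43) for Lrrtm4 and from -0.38 to 0.01 (SE 0.28) for Nlgn1. In SMART-Seq2 edgeR called 0 of 8372 genes (0%) in each of the 3 comparisons, and so 0 of 6 of these genes, with 314, 199 and 379 genes at an unadjusted p under 0.05 in mineral oil against heated xylene, heated against room-temperature xylene, and mineral oil against room-temperature xylene. DESeq2 called 16, 1 and 20 genes and 0 of these 6. Nrxn3 was 1 of the genes at an unadjusted p under 0.05 in each comparison with mineral oil, at -0.69 against heated xylene (SE 0.22, edgeR adjusted p = 0.796) and -0.50 against room-temperature xylene (SE 0.22, adjusted p = 1.00). Its mineral oil wells, at 4499 to 6589 CPM, lay under the heated xylene wells, at 7085 to 9661.

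Of the partners, 14 were tested between methods in SCRB-seq. Shank2 and Dlg2, scaffolds of excitatory synapses, were called lower in mineral oil than in heated xylene (-1.70, SE 0.47, and -0.74, SE 0.23), 2 of 14 against 8.52% of all genes called in either direction. Shank2 (-2.11, SE 0.47), Gphn, which encodes the inhibitory scaffold gephyrin (-1.08, SE 0.31), and Dlg2 (-0.96, SE 0.24) were called lower in mineral oil than in room-temperature xylene, 3 of 14 against 7.78% of all genes. In the wells of 100 nuclei alone the Shank2 calls were lost (-1.08 against heated xylene, adjusted p = 0.225, and -1.10 against room-temperature xylene, adjusted p = 0.230), as was that of Gphn (-0.64, adjusted p = 0.118), while those of Dlg2 held (adjusted p = 0.0202 and 0.0101). The Dlg2 call against heated xylene was lost with DESeq2 size factors (edgeR adjusted p = 0.0557). In heated against room-temperature xylene 0 partners were called by edgeR or by DESeq2, with 3 at an unadjusted p under 0.05 in edgeR. Other settings also added calls. Clstn1, a calsyntenin named after its values were seen, was called higher in the wells of 100 nuclei in heated (0.99, edgeR adjusted p = 0.0293) and in mineral oil (1.01, adjusted p = 0.0186) against room-temperature xylene, and in the former with the number of nuclei as a covariate (1.31, adjusted p = 0.0317). With that covariate 6 of 14 partners were called lower in mineral oil than in room-temperature xylene, against 13.8% of all genes in that setting. Marker lists moved here too. In SCRB-seq the inhibitory neuron list had medians of 72.9 CPM with mineral oil, 455 with heated xylene and 506 with room-temperature xylene, with 2 of its 4 genes at 0 in the mineral oil wells, and the oligodendrocyte list 233, 2270 and 2005 CPM. The granule neuron list went the other way, with medians of 1623, 1211 and 919 CPM in the same order. Their part in the differences of Nrxn2 and Nrxn3 was not tested.

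Whether the FFPE difference depends on the number of nuclei was tested as an interaction in SCRB-seq (100 against 10 nuclei). None of the 4 genes was called by edgeR, while 280 of 1478 genes were. The interaction was 0.58 for Nlgn1 (SE 0.38, adjusted p = 0.298), 0.55 for Lrrtm4 (SE 0.54, adjusted p = 0.530), -0.41 for Nrxn2 (SE 0.89, adjusted p = 0.817) and -0.07 for Nrxn3 (SE 0.27, adjusted p = 0.904).

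**Figure D3:**
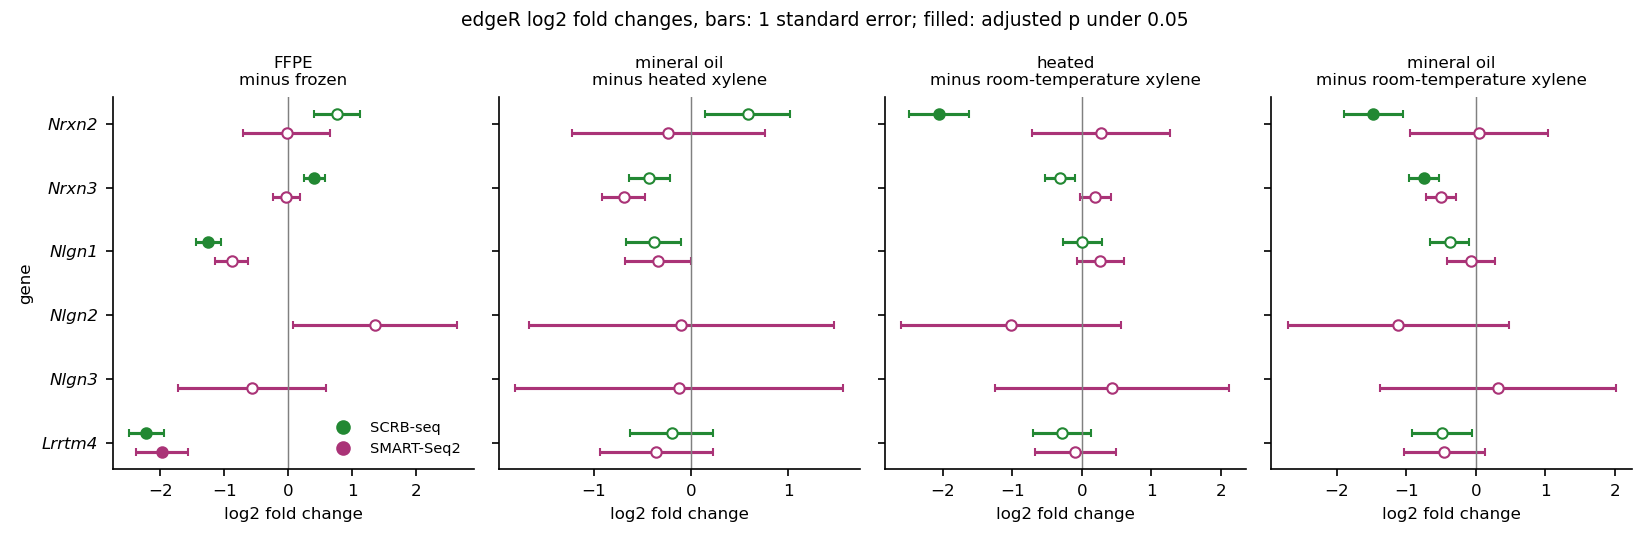
edgeR log2 fold changes (horizontal axis, TMM scaling) of the 6 genes in 4 comparisons; green is SCRB-seq, purple SMART-Seq2, bars are 1 standard error and filled points have an adjusted p under 0.05. Lrrtm4 is filled in both assays for FFPE minus frozen (-2.22 and -1.97), while the filled Nrxn3 point of 0.41 becomes -0.17 with DESeq2 size factors; Nlgn2 and Nlgn3 were tested only in SMART-Seq2.

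In plate nuclei Lrrtm4 was lower in FFPE than in frozen nuclei. The FFPE and frozen nuclei came from different plates, and the deposited annotation marks the brain of all FFPE nuclei L and of all frozen nuclei R, so preservation, plate and this mark cannot be told apart, and with 1 sample per group no test was made. Of the 143 FFPE nuclei, 134 are those of batch 2. Pooled over nuclei, Lrrtm4 was at 367 CPM in the 143 FFPE nuclei and 931 in the 137 frozen nuclei (95% Poisson intervals 359 to 375 and 924 to 939, which cover counting error only, since these reads carry no molecular identifiers). The mean over nuclei was 342 against 881 CPM. After each nucleus was thinned to 10000 counts, 38.5% of 135 FFPE nuclei (95% Clopper-Pearson interval 30.3% to 47.3%) and 76.4% of 127 frozen nuclei (68.0% to 83.5%) had a Lrrtm4 count, and unthinned the shares were 52.4% and 90.5%. Batch 1, a separate set of 98 FFPE nuclei, had 41.1% after thinning and a pooled 596 CPM. Within the groups, the FFPE plates stood at 410 (MB16) and 227 CPM (MB14) and the frozen plates at 722 and 1130 CPM. The batch 1 plates stood at a pooled 656 (MB18) and 262 CPM (MB17), and at means over nuclei of 550 and 1065 CPM, so the MB17 mean lay above the frozen mean, with 1 nucleus giving 35.4% of its Lrrtm4 counts.

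Other genes changed direction with the way the nuclei were summed. Nrxn3 was higher in FFPE when counts were pooled (4439 against 2554 CPM) and lower in the mean over nuclei (2399 against 2856 CPM). For each gene, the FFPE nucleus with most of its counts gave 32.7% of the FFPE counts of Nrxn3, 53.0% of those of Nlgn1, 45.1% of those of Nlgn3 and 37.5% of those of Lrrtm4. Without the 9 FFPE nuclei that are not in batch 2, which held 102136 to 4973791 counts each, pooled Nrxn3 was 2170 CPM and pooled Nlgn1 642 CPM, against 1170 with them and 1035 in frozen nuclei. Batch 1 held more of both than the frozen nuclei in pooled counts, at 6086 CPM of Nrxn3 and 1669 of Nlgn1. For Nlgn1, plate MB17 stood at 4896 CPM, with 52.9% of its counts in 1 nucleus, and MB18 at 1084 CPM. After thinning, 68.9% of batch 1 nuclei had a Nlgn1 count, against 79.5% of frozen nuclei. Across pooled counts, the mean over nuclei, the set without the 9 nuclei and the thinned nuclei, Lrrtm4 was the 1 gene of 6 whose log2 ratio of FFPE to frozen kept its sign, from -1.54 to -1.34. The share of all genes that kept their sign was not computed, so the count of 1 of 6 has no background. Batch 1 is not part of that count. Its pooled log2 ratio to frozen nuclei was -0.64 for Lrrtm4, -0.87 for Nlgn2 and -0.53 for Nrxn2, so Lrrtm4 was not the lowest there.

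As shares of thinned nuclei with a count, Nlgn1 was at 66.7% in FFPE and 79.5% in frozen nuclei (95% intervals 58.0% to 74.5% and 71.5% to 86.2%), and Nrxn3 at 88.9% and 90.6%. Nrxn2 was at 35.6% and 46.5%, and Nlgn2 at 21.5% and 22.8%. Nlgn3 was found in fewer FFPE than frozen nuclei (14.8% against 29.9%, intervals 9.29% to 21.9% and 22.1% to 38.7%), while its mean was higher, at 123 against 63.2 CPM. That FFPE mean leans on few nuclei, since the highest nucleus held 6411 CPM of Nlgn3 on plate MB16 and 5881 CPM on MB14. The median over nuclei was 0 in FFPE and 2.83 CPM in frozen nuclei. Between the 135 FFPE and 127 frozen thinned nuclei the Lrrtm4 and Nlgn3 intervals did not overlap, and those of the other genes did. Without thinning, the Nlgn1 intervals also did not overlap (72.2% to 86.0% and 89.8% to 97.9%). The share of all genes without overlap was not computed, so this count is no result of its own. In batch 1 the Nlgn2 share was 6.67% (2.49% to 13.9%), under the frozen interval of 15.9% to 31.1%. These intervals cover the counting of nuclei within 1 sample per group, and nuclei are not replicates.

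By pooled CPM, nuclei with a count of Gabra6 held less Lrrtm4, Nrxn3 and Nlgn1 in both FFPE batches. In batch 1, pooled Lrrtm4 was 199 CPM in the 32 nuclei with Gabra6 and 849 in the 66 without, and in batch 2 it was 258 CPM in 49 and 380 in 85. Nrxn3 stood at 3472 against 7753 CPM in batch 1 and 1619 against 2705 in batch 2, and Nlgn1 at 1164 against 1991 and 428 against 849. The share of nuclei with a count, not thinned, went the other way for Nrxn3, at 100% with Gabra6 against 81.8% without in batch 1 and 100% against 91.8% in batch 2, and was close for Nlgn1, at 78.1% against 80.3% and 77.6% against 78.8%. Nrxn2 and Nlgn3 had higher pooled levels with Gabra6, Nrxn2 at 157 against 97.7 CPM in batch 1 and 380 against 84.9 in batch 2, and Nlgn3 at 119 against 49.5 and 88.3 against 18.7. The Nlgn3 level in batch 1 rests on 6 of 32 nuclei with Gabra6 and 12 of 66 without (18.8% and 18.2%), and 1 nucleus gave 30.3% of the Nlgn3 counts of that batch. Nlgn2 was at 21.3 against 24.2 CPM in batch 1 and 37.2 against 83.4 in batch 2. Nuclei with Gabra6 were deeper, with medians of 224451 against 165138 counts in batch 1 and 61827 against 40870 in batch 2. The granule neuron list had a count in 89.5% of the FFPE and 38.7% of the frozen nuclei, with mean sums of 1419 and 35.1 CPM, and the excitatory neuron list in 67.1% and 90.5%, with mean sums of 598 and 1332 CPM. The inhibitory neuron list had a count in 46.9% of the FFPE and 76.6% of the frozen nuclei, with mean sums of 357 and 1026 CPM, the opposite direction to the SCRB-seq wells. In the FFPE nuclei without Gabra6, the mean of Lrrtm4 over nuclei was 939 CPM in batch 1 and 404 in batch 2, beside 881 in all frozen nuclei, so batch 1 was above the frozen mean there and batch 2 below it. The part of these cell types in the Lrrtm4 difference was not tested.

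**Figure D4:**
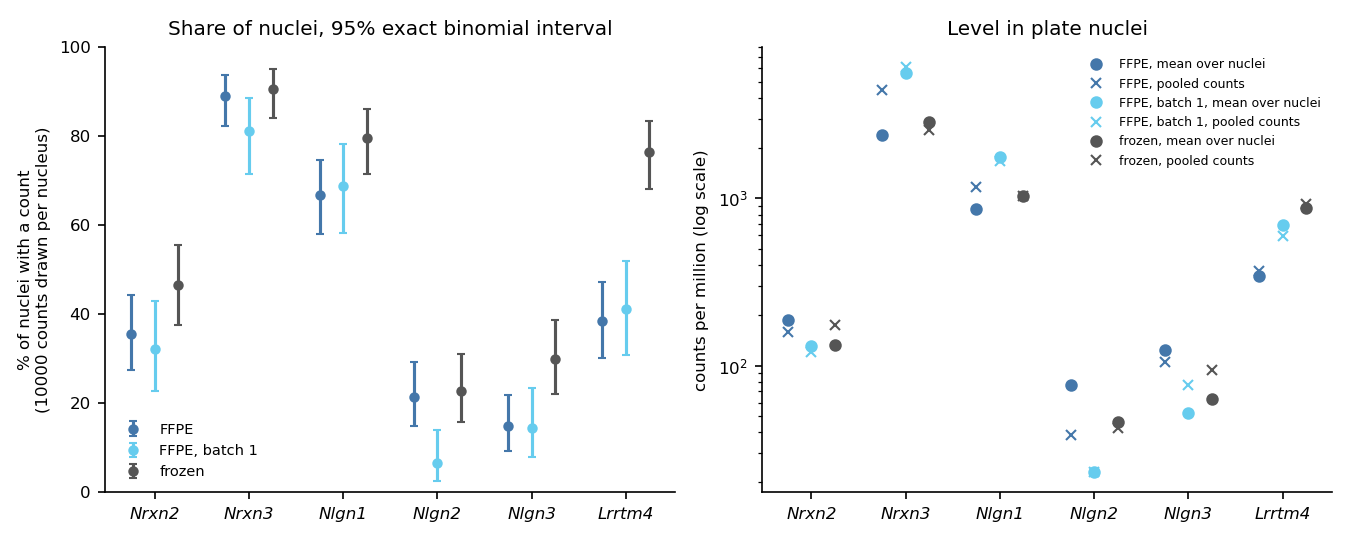
Left, percent of plate nuclei with a count after thinning to 10000 counts, with 95% exact binomial intervals; right, mean over nuclei (circles) and pooled counts (crosses) in CPM on a log axis, for FFPE, FFPE batch 1 and frozen nuclei. Lrrtm4 shares of 38.5% and 41.1% in FFPE stand against 76.4% in frozen nuclei, while Nrxn3 in the FFPE nuclei lies above frozen in pooled counts (4439 against 2554 CPM) and below it in means (2399 against 2856).

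The droplet table gave the 9 genes by the authors' annotation classes in FFPE nuclei. All values come from 1 sample, in which 0 barcodes occurred more than once, so intervals (95% Poisson for CPM, 95% Clopper-Pearson for shares) cover counting error only and no test was made. Over all nuclei Nrxn3 had 11945 UMIs, Nlgn1 5102, Lrrtm4 3562, Lrrtm3 1836 and Nrxn2 786, and the others were scarce, at 175 for Nlgn2, 158 for Nlgn3, 98 for Lrrtm2 and 56 for Lrrtm1. Per kilobase of exon the order was Nrxn3 at 364 CPM per kb, Lrrtm4 at 222, Lrrtm3 at 166 and Nlgn1 at 146, then Nrxn2 at 21.8 and the 4 scarce genes at 6.25 to 11.6.

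The class names were checked against the marker lists. The astrocyte, oligodendrocyte, oligodendrocyte precursor (OPC) and microglia lists each peaked in the class of that name, at 6642, 12358, 1110 and 2867 CPM. The excitatory neuron list did not separate the ExNeuron classes from the others, at 926 CPM in ExNeuron4 and 1536 in Microglia. The inhibitory neuron list was highest in ExNeuron4 (837 CPM) and ExNeuron6 (812 CPM), and the granule neuron list in ExNeuron3 (1760 CPM), so these classes are called here by the authors' names without taking the names as a cell type.

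Nrxn3 varied 4.13-fold between classes. It was highest in ExNeuron6, at 8122 CPM (7514 to 8766), followed by ExNeuron4 at 6091 (5816 to 6375) and ExNeuron1 at 4775 (4628 to 4926), and these 3 intervals do not overlap. ExNeuron3 at 4444 CPM (4237 to 4658) and OPC at 4258 (3809 to 4747) followed, and both overlap ExNeuron1. After them came ExNeuron2 (4249), ExNeuron5 (3818) and Astrocyte (3575), with intervals that overlap between neighbours. Microglia (3038), Endothelial (3021) and Oligodendrocyte (2933) nuclei did not differ from each other beyond counting error, and Fibroblast nuclei were lowest at 1968 CPM (1400 to 2691). The 2 classes with most Nrxn3 are those with most of the inhibitory neuron list. Nrxn3 had a UMI in 77.0% of ExNeuron4 nuclei (median 371 UMIs) and in 62.4% of Microglia (median 285 UMIs, interval 51.7% to 72.2%), a class that should largely lack it. In ExNeuron6, the class with the highest level, the share was 72.7% (66.2% to 78.6%), whose interval overlaps that of Microglia. The shares in Endothelial (56.3%), Oligodendrocyte (54.7%) and Fibroblast nuclei (53.2%) were below that of Microglia. Those in Astrocyte (63.5%), OPC (65.6%), ExNeuron5 (67.1%) and ExNeuron2 (68.5%) lay inside the Microglia interval. This share, which is not thinned, sets none of these classes apart from background. The part of background RNA in their counts was not tested. After thinning to 250 UMIs the level in ExNeuron6 was 7204 CPM, against 2682 in Microglia.

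Nlgn1 was highest in OPC, and the highest Lrrtm4 values were those of OPC and 2 of the ExNeuron classes, with intervals that in part overlap the next class. Nlgn1 was at 3187 CPM in OPC (2800 to 3613), above Astrocyte at 2268 (2079 to 2470), ExNeuron5 at 2220 and ExNeuron1 at 2164, which overlap. ExNeuron4 (1987), ExNeuron2 (1834), ExNeuron6 (1600), ExNeuron3 (1583) and Microglia (1468) came next, and Oligodendrocyte (1232), Endothelial (1201) and Fibroblast (656, interval 349 to 1122) were lowest. A Nlgn1 UMI was present in 60.0% of OPC (53.1% to 66.6%) and in 36.6% of Microglia (26.8% to 47.2%). The Nlgn1 shares in Endothelial (29.9%), Oligodendrocyte (33.6%) and Fibroblast nuclei (27.7%) were below that of Microglia. Those in ExNeuron2 (39.3%), ExNeuron3 (37.4%), ExNeuron5 (45.0%) and ExNeuron6 (40.2%) lay inside the Microglia interval. None of these classes is set apart from background by this share, and the part of background RNA was not tested. Lrrtm4 stood at 2025 CPM in OPC (1719 to 2370), 1991 in ExNeuron4 (1835 to 2156) and 1784 in ExNeuron6 (1506 to 2100), which cannot be ordered within counting error. ExNeuron1 came next at 1657 CPM (1570 to 1747), and its interval overlaps those of OPC and ExNeuron6. ExNeuron5 at 1440 CPM (1244 to 1659) overlaps ExNeuron6 and ExNeuron1. ExNeuron2 (1059) followed, and the other classes lay between 757 and 990 CPM. A Lrrtm4 UMI was present in 43.7% of OPC and 40.9% of ExNeuron4, against 19.4% of Microglia (11.9% to 28.9%). The Lrrtm4 shares in ExNeuron2 (22.9%), ExNeuron5 (28.7%) and ExNeuron3, the lowest of these, lay inside that interval, as did those in Astrocyte, Endothelial, Fibroblast and Oligodendrocyte nuclei (18.4% to 25.5%), so these classes are not set apart from background by this share. ExNeuron3, the class highest in the granule neuron list, was at 872 CPM of Lrrtm4 (782 to 970), the lowest of the 6 ExNeuron classes.

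Lrrtm3 had another order among the neuron classes. It was highest in ExNeuron3 at 1116 CPM (1014 to 1226), and this was the 1 class whose interval lay above the level of 705 CPM over all nuclei. The other ExNeuron classes ran from 602 (ExNeuron4) to 787 CPM (ExNeuron5), and Astrocyte (444), Microglia (410) and Fibroblast (404) were lowest. A Lrrtm3 UMI was present in 30.0% of ExNeuron3 nuclei (27.3% to 32.8%) and in 11.8% of Microglia (6.05% to 20.2%). Lrrtm3 lies wholly inside Ctnna3 on the other strand, Lrrtm1 inside Ctnna2 and Lrrtm2 inside Ctnna1, and the sources used here do not state whether counting used strand, so reads of these pairs cannot be told apart. The host Ctnna3 had another pattern, with its highest levels in Oligodendrocyte (625 CPM) and Astrocyte (474) and 100 CPM in ExNeuron3.

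Nrxn2 varied little, from 184 CPM in Oligodendrocyte (112 to 284) to 406 in ExNeuron6 (280 to 570), and apart from Oligodendrocyte each class interval held the level over all nuclei, 302 CPM. Most classes could not be ordered for the scarce genes. Nlgn2 ran from 0 of 93 Microglia nuclei, which allows up to 126 CPM, to 111 CPM in ExNeuron6 from 9 UMIs, and its Astrocyte level of 29.9 CPM (12.0 to 61.6, 7 UMIs) was the 1 class interval wholly under the level over all nuclei, 67.2 CPM. Nlgn3 was at 53.8 CPM in the neuron classes together (44.3 to 64.8) and 87.6 in the other classes together (64.1 to 117), and its highest class value, 252 CPM in Fibroblast (81.9 to 589), was the 1 class interval wholly above the level over all nuclei, 60.6 CPM, and rests on 5 UMIs. Lrrtm1 and Lrrtm2 had at most 19 and 32 UMIs in a class.

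Against the other classes together, the neuron classes together had 1.44 times the Nrxn3 level, 1.45 times that of Lrrtm3, 1.39 times that of Lrrtm4, 1.21 times that of Nrxn2 and 0.994 times that of Nlgn1. Over the 898 genes with at least 500 UMIs the median ratio was 1.09, and the range from the 5th to the 95th percentile was 0.639 to 1.70, so each of these ratios lies inside the range of most genes. The highest class was a neuron class for 4 of the 9 genes (Nrxn2, Nrxn3, Nlgn2 and Lrrtm3), where that of Nlgn2 rests on 9 UMIs, and for 3 by the mean CPM over nuclei. A neuron class was the highest for 46.9% of the 898 genes, so the count is near that of most genes and is no result of its own.

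**Figure D5:**
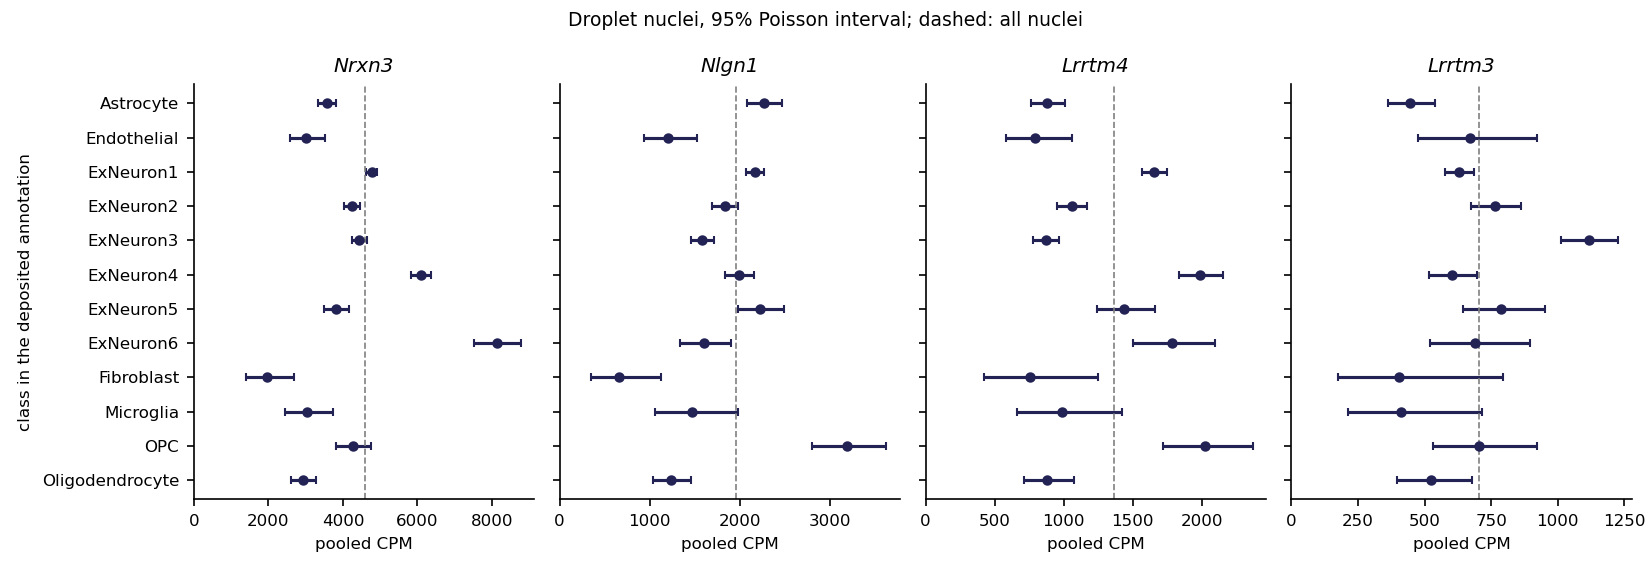
Pooled CPM with 95% Poisson intervals of Nrxn3, Nlgn1, Lrrtm4 and Lrrtm3 in each of the 12 droplet annotation classes; the dashed line is the level over all nuclei. Nrxn3 is highest in ExNeuron6 (8122 CPM), Nlgn1 in OPC (3187 CPM) and Lrrtm3 in ExNeuron3 (1116 CPM), while the Lrrtm4 intervals of OPC, ExNeuron4 and ExNeuron6 overlap (2025, 1991 and 1784 CPM).

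For the 5 genes with at least 500 UMIs, the genes most alike in pattern were found by the Pearson correlation of log2(pooled CPM + 10) over the 12 classes, which share 1 library and differ in depth and nuclei number. Nrxn3 was most like Fam155a (r = 0.94), Dpp10 (0.92) and Cadps (0.88), and Nrxn2 most like Celf1 (0.93), Auts2 (0.77) and Cux1 (0.76). Nlgn1 was most like Ppp2r2b (0.93), Ptprt (0.93) and Ctnnd2 (0.93). Lrrtm4 was most like Sntg1 (0.94), Myo5a (0.90) and Gria3 (0.87), and Lrrtm3 most like Kcnd2 (0.90), Ryr2 (0.90) and Inadl (0.89). None of these lists holds another of the 9 genes.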

How the data were processed

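The authors deposited tables of raw counts per mouse gene and well or nucleus (SCRB-seq, SMART-Seq2 bulk and plates) and raw UMI counts for droplets. Per the submitters' processing notes the builds were mm10 and hg19. Aligner, counter, strand setting and any UMI collapse in SCRB-seq were not given in the sources used here. Wells and nuclei were grouped by the deposited annotation. The plate table of batch 3 holds 0 nuclei. Human genes of SCRB-seq were left out.

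Members and lists were chosen with earlier results of these data known. Counts of all mouse genes were tested by quasi-likelihood in edgeR (version 4.0.16, R 4.3.3) after TMM scaling and filterByExpr, without covariates, at an adjusted p under 0.05 (Benjamini-Hochberg). Comparisons of methods were fitted on FFPE wells, and FFPE minus frozen (the mean of the 3 methods against frozen) with the frozen wells added; the comparisons share wells. DESeq2 1.42.0 size factors and Wald test, no filter on low counts, the number of nuclei as a covariate, wells of 1 size, and each SMART-Seq2 well left out were the alternatives. Nuclei were thinned without replacement to 10000 counts (plates) or 250 UMIs (droplets), leaving out shallower nuclei; no doublet caller was run. Named genes were the 9 members, overlapping genes, the 3 genes most alike over droplet classes, and the 2 partners with the largest called rise and fall per comparison. On simulated counts for FFPE minus frozen, SCRB-seq (1478 genes) recovered 58.2%, 100% and 100% of 2-, 4- and 16-fold changes and SMART-Seq2 (9092 genes) 0%, 4.48% and 50.0%. Gene coordinates are from GENCODE M21. Figures were drawn with matplotlib 3.10.9.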

Additional observations from a re-analysis of the deposited data

Results flagged for a closer look

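Of 46 groups of 8 SCRB-seq wells (1 gene, method and number of nuclei each), 9 had a highest well set apart from the rest of its group; chance flags about 1 in 20 groups of evenly varying values, and that rate was not computed for sparse counts, where 1 count beside wells at 0 is enough. Among mineral oil wells of 10 nuclei, 1 well held Lrrtm4 at 1809 CPM (next 399, 29 counts), Nlgn1 had a well at 1888 CPM (next 688, 31 counts), and Nrxn2 had a well at 76.4 CPM from 1 count, with the others at 0. Among mineral oil wells of 100 nuclei, Lrrtm4 had a well at 1294 CPM (next 626) and Nlgn2 one at 404 CPM from 13 counts (next 97.0). Nrxn3 had a room-temperature xylene well of 10 nuclei at 9116 CPM (next 4475, 392 counts). Nrxn2 had a heated xylene well of 100 nuclei at 190 CPM (next 109). Nlgn2 had a frozen well of 10 nuclei at 133 CPM from 5 counts (next 60.5), and a room-temperature xylene well of 10 nuclei at 43.5 CPM from 1 count, with the others at 0.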

How the results depend on the processing

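Lrrtm4 and Nlgn1 stayed lower in FFPE than in frozen SCRB-seq wells, and Lrrtm4 in SMART-Seq2, with a call under each alternative run. Nrxn3 in that SCRB-seq comparison turned to -0.17 with DESeq2 size factors and -0.17 with the DESeq2 Wald test, and lost its call without the filter and in wells of 10. Other values near 0 also turned: Nlgn1 in heated against room-temperature xylene to -0.069 (size factors), -0.070 (Wald), -0.016 (covariate) and -0.088 (wells of 10), Nrxn3 there to 0.054 (wells of 100), Lrrtm4 in mineral oil against heated xylene to 0.094 (wells of 10), and Nrxn2 and Nrxn3 in SMART-Seq2 FFPE against frozen to 0.021 and 0.019 without the filter. With 1 SMART-Seq2 well left out, Nrxn2 ran from -0.14 to 0.88 (heated against room-temperature xylene) and from -0.13 to 0.21 (FFPE against frozen), and Nrxn3 from -0.083 to 0.36 (FFPE against frozen); genes called ran from 162 to 469 in FFPE against frozen, 0 to 6 in mineral oil against heated xylene and 0 to 8 in mineral oil against room-temperature xylene, and members called from 1 to 2 in FFPE against frozen. Leaving out the frozen well of 100, 50 or 10 nuclei left 1 member called each time.

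Members called in SCRB-seq became 1 in mineral oil against heated xylene and 1 in mineral oil against room-temperature xylene (wells of 100), and 0 in both comparisons with room-temperature xylene (wells of 10, where 3 members were tested and Nrxn2 was not); in SMART-Seq2 FFPE against frozen they became 2 without the filter and 2 with the covariate. Genes called in SCRB-seq, in the order mineral oil against heated xylene, heated against room-temperature xylene, mineral oil against room-temperature xylene, were 3415, 2899 and 2925 without the filter (4785 in FFPE against frozen), 143, 62 and 201 with the covariate, and 256, 117 and 178 in wells of 100. DESeq2's Wald test called 33 in heated against room-temperature xylene, edgeR with its size factors 14 there, and wells of 10 gave 478 in FFPE against frozen. SMART-Seq2 gave 19, 5 and 16 without the filter and 16, 1 and 20 by the Wald test (630 in FFPE against frozen).

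Plate log2 ratios of FFPE to frozen, by the mean over nuclei, without the 9 nuclei, and thinned, were 0.50, 0.40 and 0.75 for Nrxn2 (pooled -0.14), -0.25, -0.24 and -0.28 for Nrxn3 (pooled 0.80), -0.26, -0.69 and -0.17 for Nlgn1 (pooled 0.18), 0.72, 0.53 and 0.44 for Nlgn2 (pooled -0.14), and -0.82 without the 9 nuclei for Nlgn3 (pooled 0.16). Members higher in FFPE plate nuclei numbered 3 pooled (Nrxn3, Nlgn1 and Nlgn3) and 2 without the 9 nuclei (Nrxn2 and Nlgn2). By the mean over nuclei and after thinning they were again 3, but Nrxn2, Nlgn2 and Nlgn3. The share of all genes higher in FFPE plate nuclei was not computed. No analysis paired by replicate was possible because the labels give no replicate numbers that join wells. Wells were matched only by the number of nuclei, as a covariate.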
